A study of Homo sapiens with 12 samples.

Results

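Acriflavine at 5 µM was compared with acriflavine at 2.5 µM, the higher against the lower of the doses in the study, in cultures labelled HepG2. The comparison takes the 8 libraries of the treated cultures out of the study's 12, 4 at each dose, and covers the 16839 of 63152 genes in the count table that passed a filter on low counts. Both groups received the drug for 24 h after a change of medium near confluence. The remaining 4 libraries are controls, which enter here only to give the shared spread and the step from 0 to 2.5 µM. The labels call the controls untreated, while the treatment protocol speaks of a DMSO vehicle. The cell line field reads HepG2, a line from a human liver tumour of hepatoblast type, but the sample description names HepG2S1, a subline made resistant by long exposure to rising doses of sorafenib, a kinase inhibitor used against liver cancer. If the description holds, resistance to sorafenib is shared by both doses and by the controls, and the results stand on a single selected line. The series title places the work in the study of the epithelial-to-mesenchymal transition.

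Acriflavine is a mixture of acridine dyes whose flat rings slide between the base pairs of DNA. It is known to inhibit topoisomerases and to block the pairing of HIF-1α with HIF-1β, the subunits of the hypoxia-inducible transcription factor encoded by HIF1A and ARNT. Drugs that intercalate into DNA are also known to disturb transcription in the nucleolus and in mitochondria, whose circular genome carries no histones.

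Each value below is in CPM, the count scaled by the TMM-adjusted library size, listed for replicates 1 to 4 in order. Library totals ran from 13095641 to 15115510 counts at 2.5 µM and from 10733567 to 15116842 at 5 µM. Genes with at least 5 counts numbered 17400.8 ± 114.4 (SD, n = 4) per library at 2.5 µM and 18498.0 ± 400.1 at 5 µM. Pearson's r of log2 CPM between libraries was 0.995 to 0.996 within 2.5 µM, 0.994 to 0.996 within 5 µM and 0.956 to 0.968 between the doses, across genes, which are not independent replicates. On the first principal component, which held 75.9% of the variance, the 2.5 µM libraries lay between the controls and the 5 µM libraries, and on the second, with 11.9%, they lay apart from both.

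The labelled liver identity was checked against 13 hepatocyte and hepatoblast markers. ALB, which encodes albumin, had 0 counts over the 4 libraries at 2.5 µM and 2 at 5 µM, AFP had 1 and 1, and TTR had 0 in all 8. The 13 markers summed to between 12.7 and 14.1 CPM at 2.5 µM and between 22.9 and 26.7 CPM at 5 µM, and FOXA1 was the largest part of it at 11.6 and 12.5 CPM. The largest rise among the 13 was that of TF, from a mean of 0.144 CPM at 2.5 µM to 5.52 at 5 µM. The near absence of ALB, AFP and TTR goes against the HepG2 label, and the libraries are called by their dose below. CPS1, a urea cycle gene of hepatocytes outside the 13 markers, was highly expressed, with means of 1778 CPM at 2.5 µM and 945 at 5 µM. Other cell type lists were summed in the same way. The 6 cholangiocyte markers, mostly KRT7, summed to 3525 to 3991 CPM at 2.5 µM and 1486 to 1783 at 5 µM. That sum follows KRT7 and KRT19, which were lower at 5 µM, and not the list as a whole. SOX9, EPCAM and CFTR were higher, with means of 6.19, 3.39 and 0.353 CPM at 2.5 µM and 15.8, 5.88 and 3.93 at 5 µM. The 7 fibroblast markers summed to 548 to 605 and 557 to 599 CPM, mostly DCN and LUM, with COL1A2, COL3A1 and THY1 near 0. The 7 endothelial markers summed to 0.616 to 1.44 and 7.21 to 8.73 CPM, with PECAM1 and CDH5 at 0 in all 8 libraries. That sum was mostly TEK, with means of 0.585 CPM at 2.5 µM and 6.24 at 5 µM, and VWF, with 0.270 and 1.65. The 8 blood cell markers summed to 1.06 to 5.16 and 3.69 to 5.57 CPM, with CD3E and HBB at 0, and the 8 neuron markers to 53.1 to 58.3 and 76.3 to 78.9 CPM. Their part in the results was not tested, and in bulk libraries fewer cells of a type cannot be told apart from less RNA per cell.

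The step from 2.5 to 5 µM changed most genes tested. Of the 16839 genes tested, 11526 (68.4%) passed an adjusted p of 0.05, 5660 (33.6%) higher and 5866 (34.8%) lower at 5 µM. Adjusted p-values are those of edgeR's quasi-likelihood test with Benjamini-Hochberg adjustment over all genes tested. The labels do not say that the libraries of a group came from separate cultures, so these p-values measure the spread between the libraries, which may be technical. The median log2 fold change over all genes was −0.01, and the median of its absolute value was 0.37. Changes of at least 2-fold were seen in 2209 genes (13.1%), 1703 higher (10.1%) and 506 lower (3.00%), so that 77.1% of the large changes were increases. The 4 values at one dose did not overlap the 4 at the other in 10465 genes (62.1%). This high background is the measure for each gene list below: a list with about these shares of its members higher and lower did not stand out from all genes.

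**Figure D1:**
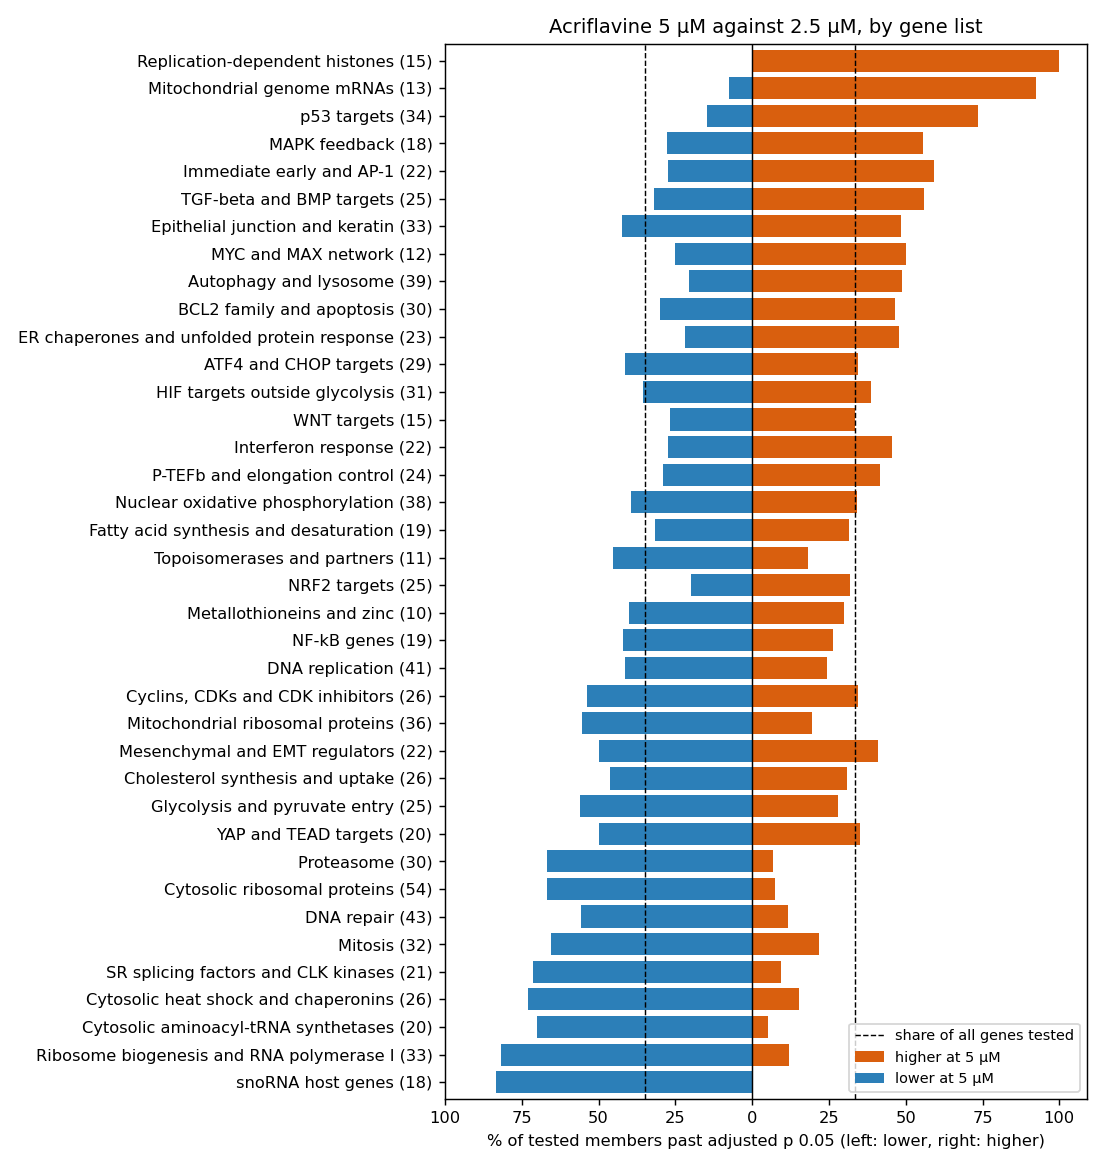
Share of the tested members of each gene list (number in brackets) that were lower (left, blue) or higher (right, orange) at 5 µM than at 2.5 µM at an adjusted p under 0.05, ordered by the list's median log2 fold change. The dashed lines mark the shares among all genes tested, 34.8% lower and 33.6% higher; the histones and mitochondrial mRNAs lie far to the right and the snoRNA host and ribosome biogenesis genes far to the left.

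Among protein-coding genes with a mean log2 CPM of at least 2 over the libraries and no overlap between the doses, 11 of the 12 genes with the largest increases had means of 0.128 to 1.14 CPM at 2.5 µM. The remaining gene, GFPT2, stood at 9.41 CPM and is described with the dose steps. IGF2, which encodes insulin-like growth factor 2, a fetal growth factor, was at 0.151, 0.141, 0.154 and 0.0672 CPM at 2.5 µM and at 36.5, 27.1, 50.4 and 40.4 at 5 µM. The log2 fold change was 8.16 ± 0.32 (SE, adjusted p = 4.35e-13), and lack of overlap between the doses was a condition for choosing the gene. IGF2 passed the filter on low counts and the limit on mean level only through the 5 µM libraries. ATP1B2, ARC, CGA, DIO3, FST, MAFA and ROS1, given below, likewise reached the limit on mean level only through those libraries. The level at 2.5 µM rested on 7 counts over the 4 libraries, so the size of the fold is far less certain than its direction. ATP1B2, a beta subunit of the sodium-potassium pump, rose from 0.908, 1.06, 1.23 and 1.34 to 39.1, 35.6, 53.6 and 42.4 CPM, a log2 fold change of 5.22 ± 0.15. ARC, an activity-regulated gene best known in neurons, rose by 5.05 ± 0.33 on the log2 scale, from a mean of 0.383 ± 0.107 (SD, n = 4) to 12.7 ± 4.51 CPM. CGA, the alpha subunit shared by the glycoprotein hormones, rose by 4.99 ± 0.24, and DIO3, the deiodinase that inactivates thyroid hormone, rose by 4.95 ± 0.43. In IGF2, ATP1B2, ARC, CGA and DIO3 replicate 3 was the highest of the 5 µM libraries and replicate 2 the lowest. FST, which encodes the activin-binding protein follistatin, rose by 4.24 ± 0.17, the transcription factor gene MAFA rose by 4.05 ± 0.18 and the receptor tyrosine kinase gene ROS1 went from 1.03 ± 0.173 to 14.4 ± 1.119 CPM.

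Under the same limits on level and overlap, the 12 largest decreases were smaller than the 12 largest increases. BEST2, which encodes a bestrophin chloride channel, was at 5.98, 7.18, 6.94 and 7.19 CPM at 2.5 µM and 1.87, 1.63, 1.32 and 0.937 at 5 µM, a log2 fold change of −2.28 ± 0.18 (adjusted p = 3.80e-13). PUS7, a pseudouridine synthase that modifies RNA, fell from 33.5, 36.4, 34.1 and 31.5 to 7.66, 7.90, 7.62 and 7.44 CPM, a log2 fold change of −2.147 ± 0.086. That no library of one dose reached the range of the other was a condition for choosing both genes. AATK, a kinase gene, fell by 2.18 ± 0.078, CDCA7, a MYC-responsive cell cycle gene, fell by 2.05 ± 0.086, and the nuclear envelope gene TMEM209 fell by 1.98 ± 0.079. RAB27B, a GTPase of vesicle secretion, fell by 1.98 ± 0.15 and PUM3, an RNA-binding protein of the nucleolus, fell by 1.96 ± 0.10.

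Most mRNAs of the mitochondrial genome were higher at 5 than at 2.5 µM after being lower at 2.5 µM than in the controls. The mitochondrial genome encodes 13 mRNAs, all for subunits of the respiratory chain and ATP synthase, and 2 ribosomal RNAs. At 5 µM, 12 of the 13 mRNAs were higher than at 2.5 µM and 1 was lower, with a median log2 fold change of 0.71. All 13 had been lower at 2.5 µM than in the controls, where the median log2 fold change was −1.996. In that first step 9957 of all genes (59.1%) were called, 5165 (30.7%) higher and 4792 (28.5%) lower. These shares are the measure for the first step of each gene list below. MT-ND2, a complex I subunit, read 234, 193, 261 and 220.4 CPM at 2.5 µM, 701, 716, 662 and 619.5 at 5 µM and 1469.7, 1476, 1454 and 1422 in the controls. The 5 µM values thus lay between the others without overlap, and the step from 2.5 to 5 µM was 1.57 ± 0.065 (adjusted p = 2.59e-15). MT-CYB, the cytochrome b of complex III, rose by 1.17 ± 0.064, MT-ND1 rose by 0.88 ± 0.051 and MT-ATP6 rose by 0.71 ± 0.059. MT-ND4 rose least clearly of these, from 2099.6, 1956, 2278 and 2086 to 2823, 2910.1, 2442 and 2352 CPM. MT-CO1, the catalytic subunit of cytochrome oxidase, passed the test at 0.25 ± 0.059 (adjusted p = 7.34e-04), but its lowest 5 µM library, at 1138 CPM, was below its highest 2.5 µM library, at 1173.

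MT-ND6 is the only mRNA encoded on the light strand, and it went the other way. Its values were 7.80, 8.93, 8.32 and 8.67 CPM at 2.5 µM and 4.99, 4.12, 3.74 and 3.31 at 5 µM, with no overlap, and it fell by 1.08 ± 0.13 on the log2 scale (adjusted p = 7.72e-09). Whether the counting used strand is not given in the sources used here, so reads of MT-ND6 and of the opposite strand cannot be told apart. The ribosomal RNA MT-RNR1 rose from 3467, 2238, 3302 and 3125 to 4859.8, 3713, 3684 and 3943 CPM, or a log2 change of 0.42 ± 0.15 (adjusted p = 0.0268), a call lost without replicate 1 at 5 µM (adjusted p = 0.0672), with no filter on low counts (0.0592) or with the controls left out of the fit (0.0553). MT-RNR2, the larger of the pair, did not pass the test, at −0.26 ± 0.12 (adjusted p = 0.0769), but passed when replicate 2 at 2.5 µM (0.0157), replicate 1 at 5 µM (0.0300) or replicate 4 of the controls (0.0228) was left out. It was also called lower with a replicate block (adjusted p = 0.0013), by limma-voom (0.00404) and without the robust option (0.00549). As a share of all counts, the mitochondrial mRNAs made up 0.587 to 0.711% of a library at 2.5 µM, 0.996 to 1.12% at 5 µM and 2.37 to 2.49% in the controls. The libraries were made from poly-A RNA, so the values of MT-ND6 and of the ribosomal RNAs are not a measure of their total amounts. The difference between the dose steps, tested directly, was called in 8179 of all genes (48.6%), and in all 13 mitochondrial mRNAs it was positive.

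**Figure D2:**
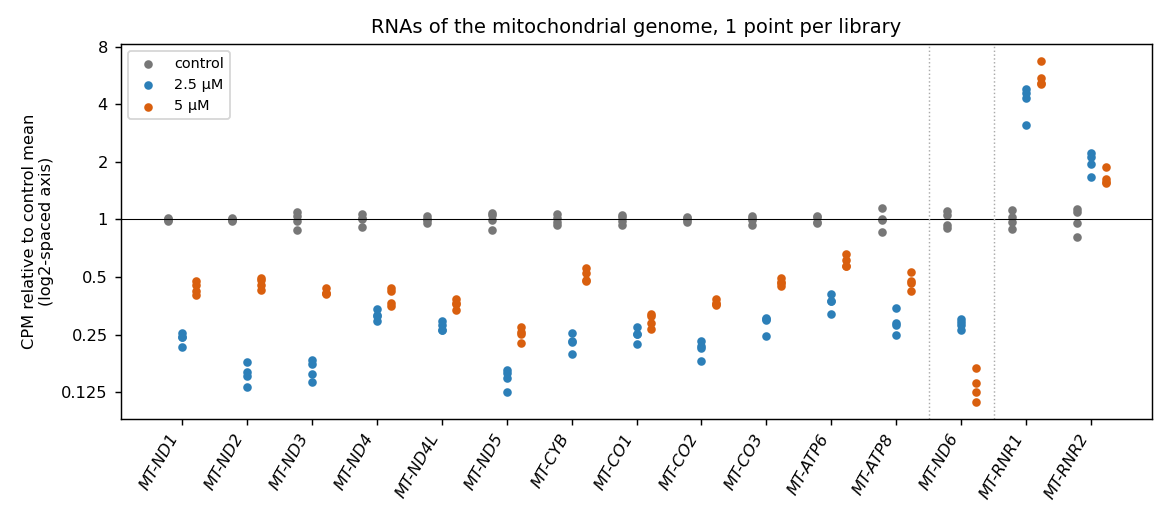
CPM of the RNAs of the mitochondrial genome relative to the control mean (vertical axis spaced by log2), 1 point per library, 4 libraries each for control (grey), 2.5 µM (blue) and 5 µM (orange); dotted lines set off MT-ND6 and the ribosomal RNAs. The 5 µM points lie above the 2.5 µM points for 12 mRNAs, with some overlap in MT-CO1, and below them for MT-ND6.

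Nuclear genes of the same organelle showed other patterns. Of 38 nuclear genes of oxidative phosphorylation, 13 were higher and 15 lower (9 lower under library-size scaling), with a median of −0.03 that turned to 0.06 under that scaling. Of 36 genes for proteins of the mitochondrial ribosome, 7 were higher and 20 lower (median −0.15). MRPL12, one of them, fell from 31.1, 31.9, 29.4 and 35.8 to 8.64, 9.02, 8.13 and 7.37 CPM, or a log2 change of −1.96 ± 0.088, the lowest value of its list. TOP1MT, the mitochondrial type I topoisomerase, fell by 1.15 ± 0.11 (adjusted p = 8.93e-11).

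Both genes of the HIF-1 heterodimer fell. HIF1A, the oxygen-regulated subunit, was at 299, 337, 312 and 279 CPM at 2.5 µM and at 117, 119, 91.2 and 109 at 5 µM, a change of −1.50 ± 0.11 on the log2 scale (adjusted p = 5.57e-08). ARNT, its constitutive partner, went from 83.3, 79.2, 84.7 and 87.6 to 30.0, 33.2, 28.0 and 28.7 CPM, a change of −1.49 ± 0.059 (adjusted p = 1.66e-20). Every 5 µM library was under every 2.5 µM library for both genes. Their fall belonged mostly to the upper dose step: the difference between the steps was −1.28 ± 0.17 for HIF1A (adjusted p = 5.97e-05) and −1.22 ± 0.095 for ARNT (adjusted p = 2.20e-12). EPAS1, which encodes HIF-2α, fell less, from 379, 391, 357 and 384 to 292, 294, 308 and 317 CPM, or a log2 change of −0.32 ± 0.045.

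The list of 31 tested HIF genes outside glycolysis, which includes HIF1A, ARNT and EPAS1, did not move as one. It held 12 higher and 11 lower members, with a median of 0.03. VEGFA, the angiogenic growth factor, fell from 97.8, 109, 97.2 and 104 to 83.7, 80.5, 73.3 and 71.5 CPM, or a log2 change of −0.41 ± 0.060 (adjusted p = 4.27e-07). NDRG1, a stress gene induced in hypoxia, rose from 313, 285, 309 and 304 to 558, 568, 607 and 571 CPM, or a log2 change of 0.93 ± 0.046. EGLN3, which encodes the prolyl hydroxylase PHD3, had the largest increase of the list, 3.86 ± 0.27, from a low level of 0.423 ± 0.260 to 6.09 ± 1.49 CPM. BNIP3, a mitophagy receptor gene, was called lower at −0.22 ± 0.077, with overlapping groups, and was not called without replicate 2 at 2.5 µM (adjusted p = 0.0541) or replicate 1 at 5 µM (0.0592), or under library-size scaling (0.131).

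Glycolysis and pyruvate entry genes leaned lower, 14 of 25 against 7 higher (11 higher under library-size scaling; median −0.18). SLC16A3, the lactate exporter MCT4, fell from 123, 122, 115 and 126 to 64.2, 65.4, 65.6 and 65.3 CPM, or a log2 change of −0.90 ± 0.049. PDK1, the kinase that shuts pyruvate dehydrogenase, fell by 0.93 ± 0.13. The aldolase gene ALDOC rose by 1.41 ± 0.078, from 21.9 ± 0.689 to 58.2 ± 6.39 CPM (SD, n = 4), after a fall of similar size in the first step (−1.30).

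Markers of the epithelial and mesenchymal states did not fall into a single direction. The transition named in the series title is commonly read from a loss of E-cadherin and keratins and a gain of vimentin, N-cadherin and the repressors of the SNAI, ZEB and TWIST families. CDH1, which encodes E-cadherin, rose from 0.606, 0.844, 1.16 and 1.55 to 5.52, 4.47, 5.13 and 4.31 CPM, or a log2 change of 2.19 ± 0.21 (adjusted p = 4.29e-11), and remained a weakly expressed gene. SNAI1, a repressor of CDH1, rose as well, from 2.88, 2.53, 2.85 and 2.89 to 11.49, 10.6, 14.7 and 12.9 CPM, or a log2 change of 2.16 ± 0.14 (adjusted p = 4.25e-15). In neither gene did the doses overlap, and in SNAI1 the 5 µM values also exceeded the controls, at 6.95, 5.35, 5.37 and 4.40 CPM. VIM, for vimentin, fell from 2059, 2049, 1986 and 1979 to 1249, 1312, 1288 and 1277 CPM, or a log2 change of −0.66 ± 0.044 (adjusted p = 1.02e-14). CDH2, for N-cadherin, fell by 0.33 ± 0.042, SNAI2 fell by 0.60 ± 0.088 and ZEB1 fell by 0.50 ± 0.097. FN1, for fibronectin, was called lower at −0.17 ± 0.051, with overlapping groups and no call under library-size scaling (adjusted p = 0.135), and TWIST1 did not pass the test at 0.09 ± 0.083 (adjusted p = 0.362).

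The epithelial junction and keratin list held changes in both directions. Of 33 tested members, 16 were higher and 14 lower (median 0.18). KRT7, the keratin of simple ducts, was at 3849.8, 3678, 3429 and 3884 CPM at 2.5 µM and at 1669.8, 1706, 1532 and 1412 at 5 µM. No 5 µM library came near the 2.5 µM range, and the log2 fold change was −1.23 ± 0.056 (adjusted p = 7.50e-18). KRT19 changed by −0.81 ± 0.062, KRT8 changed by −0.67 ± 0.057 and KRT18 changed by −0.95 ± 0.074 on the log2 scale. Among the junction genes, the claudin CLDN6 rose by 4.802 ± 0.24 from 14 counts over the 4 libraries at 2.5 µM to 383 at 5 µM. CLDN6 passed the filter on low counts only through the 5 µM libraries. The desmosomal cadherin DSC2 rose by 2.01 ± 0.19. SPINT1, a membrane inhibitor of serine proteases, rose from 33.2, 32.6, 32.6 and 32.1 to 122, 114, 124 and 123 CPM, or a log2 change of 1.89 ± 0.060.

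Mesenchymal genes and regulators had 9 higher and 11 lower of 22 tested (7 lower under library-size scaling), with a median of −0.16 that turned to 0.07 when no filter on low counts was used. ACTA2, smooth muscle actin, rose from 46.7, 45.8, 43.6 and 44.6 to 134, 131, 145 and 146 CPM, or a log2 change of 1.62 ± 0.058, and the controls had been at 8.36, 8.36, 9.93 and 7.19. COL1A1, a collagen I chain, rose by 0.46 ± 0.088. Targets of TGF-beta and BMP, signals that drive this transition in many cells, had 14 higher and 8 lower of 25 (median 0.19). ID2, an inhibitor of helix-loop-helix factors, rose by 1.96 ± 0.079, while its relative ID1 fell by 0.81 ± 0.053. CCN2, a matrix protein also listed as a YAP target, rose by 3.05 ± 0.20. The YAP and TEAD targets as a list had 7 higher and 10 lower of 20, after 16 higher and 2 lower in the first step.

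**Figure D3:**
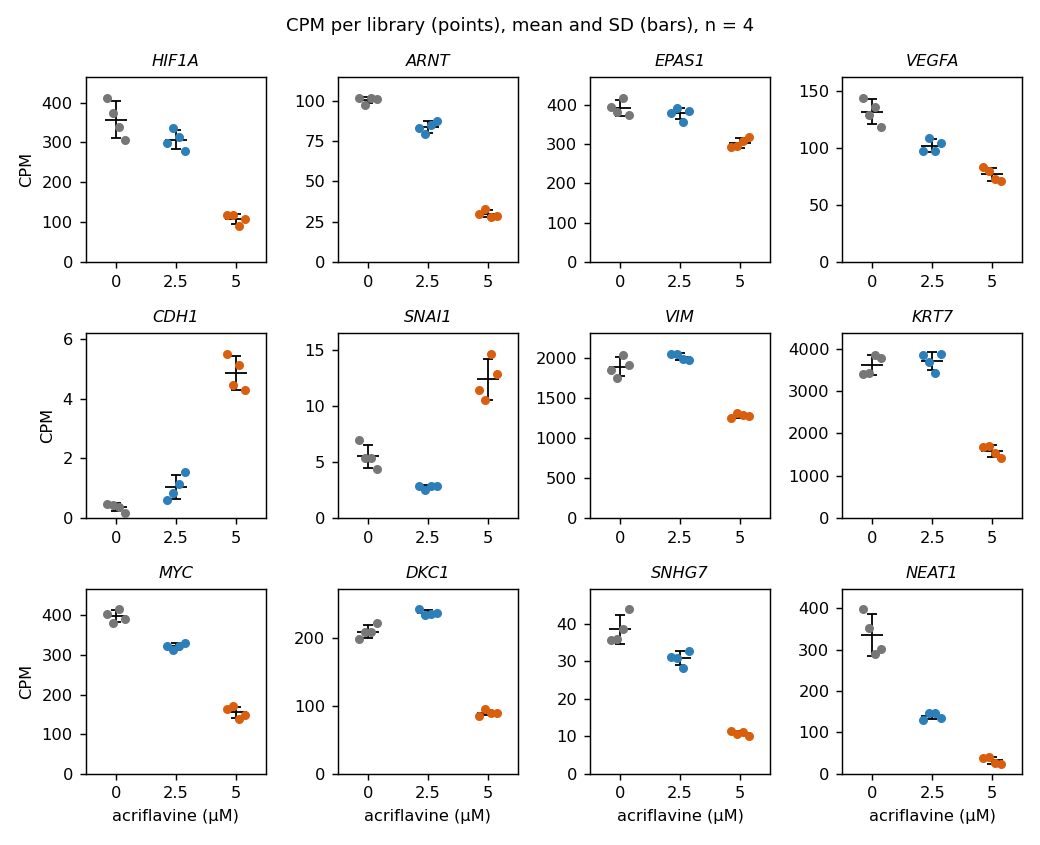
CPM per library of 12 genes (points, n = 4 per group) against the acriflavine dose in µM, with the mean and SD as bars; each panel has its own vertical axis from 0. HIF1A, ARNT, KRT7, MYC, DKC1, SNHG7 and NEAT1 are far lower at 5 than at 2.5 µM, EPAS1, VEGFA and VIM more modestly lower, and CDH1 and SNAI1 higher.

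Targets of p53, the transcription factor that answers DNA damage and nucleolar stress, leaned higher in both dose steps. At 5 against 2.5 µM, 25 of 34 were higher and 5 lower (3 under library-size scaling), with a median of 0.34. CDKN1A, the cell cycle inhibitor p21, went from 338, 342, 340.4 and 354 to 690.4, 656, 654 and 655 CPM, or a log2 change of 0.95 ± 0.054 (adjusted p = 9.21e-16). BBC3, the BH3-only death gene PUMA, rose by 1.16 ± 0.11. MDM2, the ubiquitin ligase that holds p53 down and is itself a target, fell from 81.6, 93.1, 93.9 and 75.1 to 70.7, 71.4, 71.3 and 73.5 CPM, or a log2 change of −0.26 ± 0.065 (adjusted p = 7.59e-04). Its relative MDM4 fell much further, from 25.5, 26.1, 26.4 and 24.9 to 5.70, 9.28, 5.93 and 6.31 CPM, or a log2 change of −1.93 ± 0.10 (adjusted p = 1.90e-17). BAX and CCNG1, both p53 targets, were among the 5 lower members, at −0.45 ± 0.060 and −0.58 ± 0.057.

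Genes of the death machinery included some of the clearer increases. Of 30 genes of the BCL2 family and apoptosis, 14 were higher and 9 lower (median 0.09). BMF, a BH3-only gene, rose from 5.22, 4.36, 5.24 and 6.12 to 37.4, 29.5, 38.2 and 34.1 CPM, or a log2 change of 2.73 ± 0.10 (adjusted p = 5.81e-21). HRK, another BH3-only gene, fell by 0.75 ± 0.057, and BIRC3, an inhibitor of apoptosis and NF-kB target, fell by 1.402 ± 0.14.

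Mitosis genes reversed between the steps. Of 32 tested, 21 were lower and 7 higher at 5 against 2.5 µM (median −0.31), after 20 higher and 2 lower at 2.5 µM against control (median 0.25). The direct test of the difference between the steps called 25 of the 32 negative and 2 positive, against 26.8% negative and 21.8% positive of all genes. KIF23, a kinesin of the cell division midzone, went from 119.8, 114, 105 and 114 CPM in the controls to 156, 167, 165 and 150.0 at 2.5 µM and 78.1, 76.9, 72.2 and 71.7 at 5 µM. Its step from 2.5 to 5 µM was −1.10 ± 0.052 and the difference of the steps −1.59 ± 0.086 (adjusted p = 4.05e-16). BUB1B, a checkpoint kinase, fell by 0.72 ± 0.048 and PLK1, the polo-like kinase, fell by 0.75 ± 0.051. Not all mitosis genes were lower: INCENP, of the chromosomal passenger complex, rose by 0.36 ± 0.056.

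Cyclins and their kinases and inhibitors were divided, 9 higher and 14 lower of 26. CCNA2, the S and G2 cyclin, fell by 0.88 ± 0.051, CCND1 fell by 0.56 ± 0.047 and CCNB1 fell by 0.34 ± 0.044. CCNE1, a cyclin of entry into S phase, rose by 1.07 ± 0.084, and CDKN2C, the inhibitor p18, rose by 0.91 ± 0.051. DNA replication genes had 10 higher and 17 lower of 41 (median −0.10). RRM2, the ribonucleotide reductase subunit that limits nucleotide supply, fell from 204, 209, 209.6 and 209 to 119, 128, 126 and 132 CPM, or a log2 change of −0.72 ± 0.044. FEN1, the flap endonuclease, rose by 0.73 ± 0.049, from 135 ± 3.71 to 223 ± 12.9 CPM.

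Replication-dependent histone genes moved together. Their mRNAs normally end in a stem-loop without a poly-A tail, so poly-A libraries see only the part that carries one. Of 55 genes listed, 25 were matched to the table and 15 were tested. All 15 were higher at 5 µM, 13 of them at least 2-fold, with a median of 1.75; the 15 passed a filter on low counts, which favours genes that are high in at least 1 group. H2AC6 was at 42.2, 39.0, 44.4 and 41.5 CPM at 2.5 µM and at 175, 161, 186 and 183 at 5 µM, a change of 2.08 ± 0.060 (adjusted p = 3.42e-24). H2AC11 rose by 3.25 ± 0.091, H2AC13 rose by 3.72 ± 0.17 and H4C8 rose by 3.57 ± 0.11. The linker histone H1-2 had the lowest value of the 15, at 0.66 ± 0.056. H1-5, at 0.89 ± 0.35, rested on low counts and lost its call when any of 5 libraries was left out in turn (adjusted p from 0.0503 to 0.132) or with DESeq2 (0.0677). Histone genes are near-identical copies, so how reads were shared between members is uncertain.

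DNA repair genes leaned lower, 24 of 43 against 5 higher (8 higher under library-size scaling; median −0.25). FANCI, of the Fanconi anaemia pathway for crosslinked DNA, fell from 207, 219.8, 216 and 209 to 99.2, 113, 90.8 and 87.0 CPM, or a log2 change of −1.13 ± 0.056 (adjusted p = 9.26e-18). PRKDC, the kinase of end joining, fell by 0.79 ± 0.050. Among topoisomerases, the enzymes that relax DNA, TOP2A fell by 0.36 ± 0.058 and TOP3B rose by 0.85 ± 0.056. TOP1 did not pass the test, at 0.02 ± 0.049 (adjusted p = 0.804).

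Genes that make and modify ribosomes were among the lists most often lower. Of 33 genes of ribosome biogenesis and RNA polymerase I, 27 were lower and 4 higher, with a median of −0.43, against −0.05 in the first step. DKC1, the pseudouridine synthase of box H/ACA particles, was at 242, 234, 235 and 237 CPM at 2.5 µM and at 85.7, 95.2, 89.1 and 89.1 at 5 µM. It fell by 1.399 ± 0.047 (adjusted p = 2.72e-22) after a rise of 0.18 ± 0.045 in the first step, and the difference of the steps was −1.58 ± 0.077 (adjusted p = 3.46e-17). NOLC1, a nucleolar chaperone of such particles, fell from 509, 489.8, 487 and 507 to 219.9, 231, 207 and 222 CPM, or a log2 change of −1.18 ± 0.044. UBTF, the factor that opens ribosomal DNA for polymerase I, rose by 0.35 ± 0.051.

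Host genes of small nucleolar RNAs carry in their introns the guides of ribosomal RNA modification. Of 18, 15 were lower and 3 did not pass the test, with the lowest median of all lists drawn in the plot of list shares, −0.67. Under 3 other scalings, a stricter low-count filter, limma-voom or the 8 treated libraries alone, 1 was called higher. The same held when replicate 1 or 2 of the controls, replicate 2 at 2.5 µM or replicate 4 at 5 µM was left out. SNHG7 fell from 31.2, 30.9, 28.3 and 32.7 to 11.3, 10.6, 11.2 and 10.1 CPM, or a log2 change of −1.51 ± 0.086 (adjusted p = 1.29e-16). GAS5, a host gene whose spliced RNA is unstable when translated, fell by 0.86 ± 0.049. In the direct test of the steps, 12 of the 18 were more negative in the upper step and 2 more positive. Genes of cytosolic ribosomal proteins had 36 lower and 4 higher of 54 (12 higher under library-size scaling; median −0.24), after 41 lower and 3 higher in the first step (median −0.23), and the direct test of the steps was positive in 13 and negative in 17. RPL27 fell by 0.58 ± 0.045 and RPL32 fell by 0.57 ± 0.044. Of 20 cytosolic aminoacyl-tRNA synthetases, which load tRNAs, 14 were lower and 1 higher; FARSB fell by 1.47 ± 0.054 and LARS1 fell by 0.96 ± 0.044.

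MYC, the transcription factor that drives many ribosome genes, fell from 322, 311, 322 and 331 to 163, 171, 139 and 148 CPM, or a log2 change of −1.05 ± 0.051 (adjusted p = 2.50e-18). No library of one dose came near the other. Its network had 6 higher and 3 lower of 12, among them MXD4, a MYC antagonist, which rose by 1.14 ± 0.062.

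Nuclear RNA processing changed on several levels. SR proteins bind exons and guide splicing, and CLK kinases phosphorylate them; of 21 such genes, 15 were lower and 2 higher (median −0.37), after 9 higher and 8 lower in the first step. SRSF3 fell from 219, 217, 224 and 218 to 89.2, 99.5, 82.3 and 82.9 CPM, or a log2 change of −1.32 ± 0.057 (adjusted p = 2.18e-19). SRSF7 fell by 1.38 ± 0.062 and SRSF2 fell by 1.49 ± 0.074. NEAT1, the long RNA around which paraspeckles form, was at 131, 146, 147 and 134 CPM at 2.5 µM and at 38.2, 39.9, 26.8 and 23.8 at 5 µM, a change of −2.14 ± 0.17 (adjusted p = 9.88e-07). MALAT1, a noncoding RNA of nuclear speckles, changed by −1.90 ± 0.17. In both, replicates 3 and 4 at 5 µM were lower than replicates 1 and 2. Lack of overlap between the doses was a condition for choosing both genes. The libraries were made from poly-A RNA, so these values are not a measure of the total amount of NEAT1 or MALAT1. POLR2A, the large subunit of RNA polymerase II, rose from 463, 438, 427 and 456 to 906, 891, 987 and 892 CPM, or a log2 change of 1.04 ± 0.044. Of 24 genes of P-TEFb and elongation control, 10 were higher and 7 lower (4 lower under library-size scaling).

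ATF4 is the transcription factor of the integrated stress response, which cells use when amino acids or protein folding fall short, and CHOP, encoded by DDIT3, is its partner in prolonged stress. ATF4 mRNA fell from 174, 191, 166 and 175 to 86.7, 78.9, 78.5 and 73.3 CPM, or a log2 change of −1.16 ± 0.052 (adjusted p = 3.54e-19), and DDIT3 fell by 0.58 ± 0.073. ATF4 had fallen by a like amount in the first step (−1.21 ± 0.049), and the difference of the steps was 0.06 ± 0.087 (adjusted p = 0.617). The list of ATF4 and CHOP targets, which includes ATF4 and DDIT3 themselves, was divided: 10 of 29 were higher and 12 lower, with a median of 0.04 (−0.03 without a filter on low counts), after 4 higher and 22 lower in the first step (median −0.95). The direct test of the steps was positive in 23 of the 29 and negative in 2.

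The bound element best known for ATF4 with C/EBP proteins reads TGATGNAA. Promoters from RefSeq on GRCh38.p14, taken over 250 bases before the gene start, were found for 24 of the 29 tested members. The letters TGATGNAA, or TTNCATCA on the other strand, were present in 4 of the 24 (16.7%), against 3.19% of all 27305 promoters in the table and 1.39% of the 10701 promoters of tested genes. The list holds ATF4 and CHOP targets by design, so this share describes the list and not the change between the doses. The 4 windows with the letters are shown because their genes ended on different courses at 5 µM. Each is written 5′ to 3′ on the strand of its gene, with the matched letters in capitals: ATF3 at chr1:212565180-212565259 (+), CHAC1 at chr15:40953226-40953305 (+), ASNS at chr7:97872433-97872512 (−) and HERPUD1 at chr16:56931930-56932009 (+).
ATF3: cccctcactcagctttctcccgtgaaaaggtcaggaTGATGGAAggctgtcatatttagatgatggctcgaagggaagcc
CHAC1: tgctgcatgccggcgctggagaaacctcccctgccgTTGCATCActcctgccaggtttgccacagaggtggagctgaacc
ASNS: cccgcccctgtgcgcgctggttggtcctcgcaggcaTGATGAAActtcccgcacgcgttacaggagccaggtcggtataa
HERPUD1: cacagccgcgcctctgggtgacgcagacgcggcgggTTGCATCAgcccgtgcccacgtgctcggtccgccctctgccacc
A match is a description of the letters, not evidence of a bound site.

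ATF3, a stress-induced repressor and activator, read 52.3, 56.6, 55.4 and 56.3 CPM at 2.5 µM and 154, 144, 175 and 168 at 5 µM. It rose by 1.54 ± 0.060 (adjusted p = 1.06e-20), and it had also risen in the first step (1.06 ± 0.069). ASNS, asparagine synthetase, rose from 59.3, 60.9, 52.7 and 60.2 to 79.9, 75.1, 93.2 and 94.1 CPM, or a log2 change of 0.56 ± 0.077 (adjusted p = 1.51e-06), without returning to the controls, at 303, 298, 363 and 320.4. CHAC1, which degrades glutathione, did not pass the test at −0.15 ± 0.16 (adjusted p = 0.417), nor did HERPUD1, of protein disposal at the endoplasmic reticulum, at 0.12 ± 0.069 (adjusted p = 0.115). HERPUD1 was called higher under 3 other scalings and with the controls left out of the fit, with adjusted p from 0.0093 to 0.0381. Both had been lower at 2.5 µM than in the controls, with log2 fold changes of −2.60 and −1.253. TRIB3, a pseudokinase that restrains ATF4, fell in both steps, with log2 fold changes of −1.43 and then −0.72 ± 0.056.

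Protein folding genes differed by compartment. ER chaperones and genes of the unfolded protein response had 11 higher and 5 lower of 23 (2 lower under library-size scaling), with a median of 0.09 after −0.34 in the first step. CRELD2, an ER stress gene, rose from 20.8, 19.6, 19.1 and 23.1 to 51.1, 41.8, 52.5 and 51.8 CPM, or a log2 change of 1.26 ± 0.077 (adjusted p = 9.78e-16). HSPA5, the main ER chaperone BiP, did not pass the test at 0.05 ± 0.055 (called higher under library-size scaling, adjusted p = 0.0354), having dropped in the first step (−1.49 ± 0.055), and CANX, the lectin chaperone calnexin, fell by 0.73 ± 0.041. Cytosolic heat shock proteins and chaperonins had 19 lower and 4 higher of 26 (median −0.39). CCT5, a chaperonin subunit, fell from 1163, 1174, 1212 and 1211 to 671, 691, 690.4 and 715 CPM, or a log2 change of −0.78 ± 0.044, while HSPA1A, the inducible HSP70, rose by 0.85 ± 0.084. Proteasome genes had 20 lower and 2 higher of 30 (6 higher under library-size scaling; median −0.24), and PSMA7 fell by 0.65 ± 0.049.

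Lysosome and autophagy genes leaned higher, 19 of 39 against 8 lower (median 0.11). NEU1, the lysosomal sialidase, was at 98.9, 95.7, 96.9 and 99.3 CPM at 2.5 µM and at 472, 438, 565 and 502 at 5 µM, a rise of 2.34 ± 0.058 (adjusted p = 2.44e-24). ATP6V0D1, a subunit of the acidifying pump, rose by 0.89 ± 0.053. MAP1LC3A, an LC3 family gene, went the other way, with a log2 fold change of −2.25 ± 0.41 from a low mean of 1.39 ± 0.274 CPM.

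Lipid genes were mixed. Cholesterol synthesis and uptake had 8 higher and 12 lower of 26 (median −0.16), after 4 higher and 21 lower in the first step (median −0.54), and the direct test of the steps was positive in 17. SC5D, a desaturase of cholesterol synthesis, rose by 0.74 ± 0.058. Fatty acid synthesis and desaturation had 6 higher and 6 lower of 19, among them AGPAT2, which builds phospholipids and rose by 1.29 ± 0.058, and the desaturase gene FADS2, which rose by 0.79 ± 0.056. Of 25 NRF2 targets, which answer oxidative stress, 8 were higher, 5 lower and 12 did not pass. HMOX1, heme oxygenase, rose by 0.96 ± 0.070, from 29.9 ± 2.11 to 58.0 ± 1.96 CPM, and had been at 60.8 ± 6.37 in the controls. NQO1, a quinone reductase, rose by 0.72 ± 0.048.

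Signalling genes were led by opposite members. Of 19 NF-kB genes, 8 were lower and 5 higher (median −0.07). The genes of the p50 and p52 precursors were lower, as NFKB1 fell by 0.82 ± 0.088 and NFKB2 fell by 0.87 ± 0.056, while ICAM1, an adhesion target, rose by 1.53 ± 0.20. Immediate early and AP-1 genes had 13 higher and 6 lower of 22 (median 0.25), among them FOSL2, which fell from 432, 409, 428 and 440.2 to 254, 257, 231 and 243 CPM, or a log2 change of −0.80 ± 0.044, and EGR1, which rose by 1.29 ± 0.20. MAPK feedback genes had 10 higher and 5 lower of 18, and DUSP6 rose by 1.29 ± 0.12 and DUSP1 fell by 0.80 ± 0.050, both phosphatases of MAP kinases. Of 15 tested WNT targets 5 were higher and 4 lower, and 8 were higher when any control library, replicate 2 or 4 at 2.5 µM or replicate 1 at 5 µM was left out, or with no filter on low counts. LGR5, a stem cell receptor for R-spondins, rose from 0.681, 0.633, 0.616 and 0.403 to 5.61, 5.93, 8.72 and 5.94 CPM, or a log2 change of 3.48 ± 0.23 (adjusted p = 2.56e-14), and had 0 counts in the controls. It passed the filter on low counts only through the 5 µM libraries. GLUL, glutamine synthetase, rose by 1.55 ± 0.11.

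The upper dose step differed from the lower one in 8179 genes, 3668 (21.8%) more positive and 4511 (26.8%) more negative. The steps share the 2.5 µM libraries, so an error in those libraries moves them in opposite directions. Among named genes with a positive difference, GFPT2, an enzyme of hexosamine synthesis, was lowest at 2.5 µM: 29.5, 24.0, 32.2 and 22.3 CPM in the controls, 9.99, 9.78, 7.71 and 10.1 at 2.5 µM and 109, 107, 150.0 and 133 at 5 µM. The difference of the steps was 5.24 ± 0.30 (adjusted p = 1.22e-08). ULBP1, a stress ligand of the killer cell receptor NKG2D, and MAP1A, a microtubule-binding protein, had the same course, with differences of 6.31 ± 0.72 and 4.85 ± 0.41. KRT16, a keratin of stressed epithelium, had a difference of 5.84 ± 0.64 without a rise: it went from 20.97 ± 3.91 CPM in the controls to 0.451 ± 0.132 at 2.5 µM and was 0.557 ± 0.201 at 5 µM (adjusted p of the upper step = 0.508).

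Genes with a negative difference included FOXN1, a forkhead factor gene, which peaked at 2.5 µM. It went from 7.09 ± 0.974 to 16.1 ± 0.876 and then 5.09 ± 0.805 CPM, a difference of −2.83 ± 0.19. TCIM, a regulator of WNT signalling, had a like course, at −2.65 ± 0.24. C16orf96, of unassigned function here, rose in both steps, by 4.13 and then 0.69, and so owed its difference of −3.44 ± 0.37 to the size of the first.

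**Figure D4:**
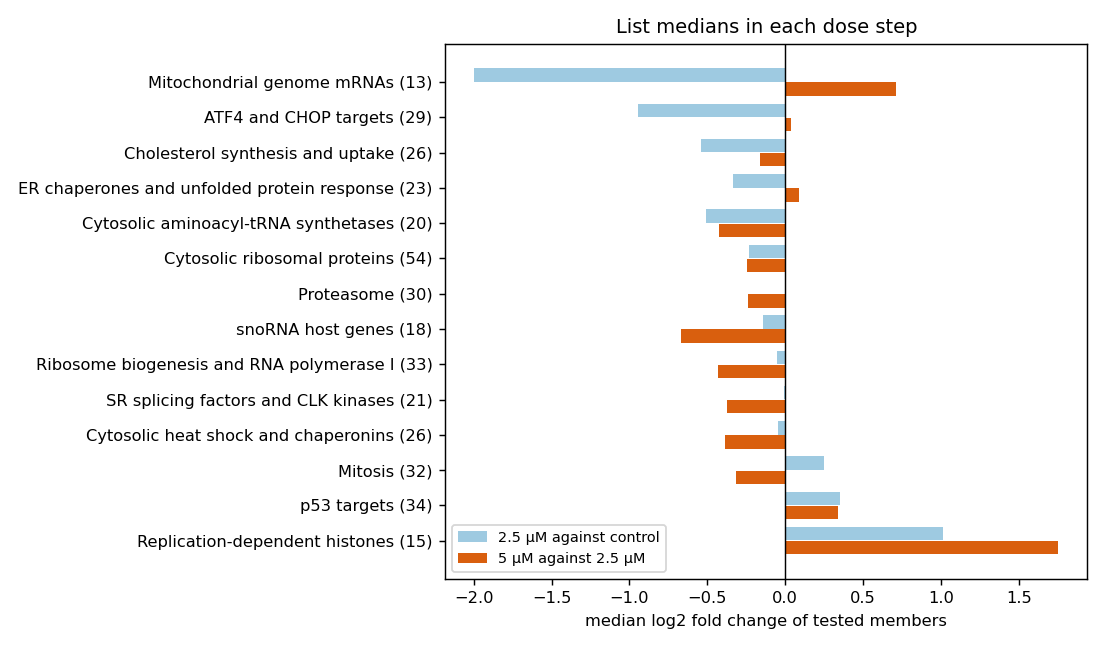
Median log2 fold change of the tested members of 14 gene lists (number in brackets) in the step from control to 2.5 µM (light blue) and from 2.5 to 5 µM (orange); both steps use the same 2.5 µM libraries. Mitochondrial mRNAs turn from −1.996 to 0.71 and mitosis genes from 0.25 to −0.31, while p53 targets stay near 0.35 and 0.34.

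Genes outside the protein-coding class moved by class. Of 726 genes annotated as antisense, 465 (64.0%) were higher and 58 (7.99%) lower, with a median log2 fold change of 0.82. Of 496 lincRNA genes, 251 were higher and 69 lower (median 0.51). Processed pseudogenes had 323 higher and 908 lower of 2466 (median −0.17), and protein-coding genes 4314 higher and 4562 lower of 12185 (median −0.01). Antisense genes took 0.308 to 0.318% of the counts of a library at 2.5 µM and 0.494 to 0.506% at 5 µM. Low abundance moved with this: of the 2437 protein-coding genes in the fifth of lowest abundance, 1253 were higher and 338 lower (median 0.47). Of the 610 antisense genes under the same limit, 400 were higher and 30 lower (median 0.93), and of the 116 above it, 65 and 28 (median 0.32). Weakly expressed genes can pass the filter on low counts only through the group where they are high, which favours changed genes among them. The part of the filter in these shares was not tested. Since the strand setting is not given, antisense reads cannot be told apart from reads of the overlapping gene.

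CALML3-AS1, an antisense gene, rose from 1.82, 1.34, 0.848 and 1.28 to 8.999, 9.96, 10.7 and 11.1 CPM, or a log2 change of 2.95 ± 0.17 (adjusted p = 1.24e-16). TUBB3P1 and HTR7P1, both pseudogenes, rose by 3.45 ± 0.17 and 2.62 ± 0.12, while CHORDC1P4, another pseudogene, fell from 3.18, 4.78, 4.93 and 3.70 to 0.713, 0.859, 0.659 and 1.31 CPM, or a log2 change of −2.17 ± 0.22 (adjusted p = 2.26e-10). Reads of a pseudogene may come from its parent gene. The lincRNA genes named by the same rule, NEAT1 and MALAT1, were both lower, as given above.

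**Figure D5:**
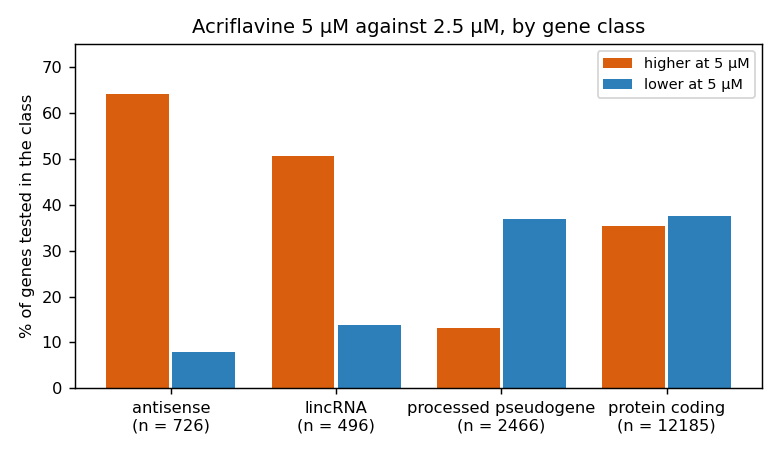
Percent of tested genes of 4 annotated classes (number of genes under each) that were higher (orange) or lower (blue) at 5 µM than at 2.5 µM at an adjusted p under 0.05. Antisense genes stand at 64.0% higher against 7.99% lower, lincRNA genes at 50.6% against 13.9%, processed pseudogenes at 13.1% against 36.8% and protein-coding genes at 35.4% against 37.4%.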

How the data were processed

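Poly-A RNA of 12 samples was sequenced with a stranded TruSeq kit on a NextSeq500, per the labels' protocols. The authors deposited 1 table of raw counts of reads per Ensembl gene. The submitters' processing notes name the build GRCh37 and, with no role or order, edgeR 3.8.6, featureCounts 1.4.6, STAR 2.4.1d, Bowtie2 2.2.4, cutadapt 1.7.1, bedtools 2.17.0, Cufflinks 2.1.1 and SAMtools 1.1. For the strand setting, the handling of reads with several matches and the annotation release, the sources used here give nothing. Strand-blind or split counting would affect antisense genes, histones and pseudogenes.

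Of the 63152 genes, 32171 had 0 counts in all libraries. Symbols and classes came from GENCODE on GRCh38 by Ensembl identifier, for 51989 genes with 99.3% of the counts, and so no gene coordinates of the counts are given. The 12 libraries entered 1 quasi-likelihood fit of edgeR 4.0.16 (R 4.3.3; TMM, filterByExpr, robust; 9 residual degrees of freedom) with the 3 groups as terms. An adjusted p under 0.05 was a call. The biological coefficient of variation was 5.425%, and the error of a log2 fold change is its size divided by the root of the F statistic. Counts carry no molecular identifiers, and a group with 0 counts allows up to 3. On simulated counts for the upper dose step with 16839 genes, the test found 54% of the genes changed 1.25-fold, 74% at 1.5-fold, 86% at 2-fold and 96% at 4-fold, with 3.73% false calls. That single simulation changed 200 genes, 50 at each fold, and gave every gene the same dispersion. In the data 68.4% of the genes were called, so these rates may not carry over.

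Named genes are the 12 largest increases and decreases among protein-coding genes with a mean log2 CPM of at least 2 and no overlap. To these come the 2 members of each list with the smallest p and a set list of HIF, transition, p53, MYC and ATF4 genes. The 3 largest changes each way among noncoding genes and the 5 largest differences of steps each way were also named. So were a few called genes with the highest mean CPM over the treated libraries. Others, mostly the extremes of a list or its best-known members, were chosen after their values were seen, and a few genes that the rule names are not reported here. Comparisons, members and lists were chosen with earlier results of these data known. Alternatives covered scaling, filter, DESeq2 1.42.0, limma 3.58.1 voom, the 8 treated libraries alone, a replicate block and each library left out. No 2 libraries agreed within sampling noise.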

Additional observations from a re-analysis of the deposited data

Results flagged for a closer look

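In groups of 4 libraries, a single library was set apart where its gap to the nearest other exceeded Dixon's limit for 4 values. Of 310 groups of 4 checked for the named genes, 19 were set apart in this way, and chance does so in about 1 in 20 groups. The CPM of each such library is given with the range of the other 3.

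At 2.5 µM, CCNB1 was high in replicate 4 (387 against 365 to 367), CCND1 in replicate 1 (236 against 224 to 226) and HSPA1A in replicate 3 (52.9 against 47.8 to 48.5). GFPT2 was low in replicate 3 (7.71 against 9.78 to 10.2), IGF2 in replicate 4 (0.0672 against 0.141 to 0.154) and RRM2 in replicate 1 (204 against 209 to 209.6). The IGF2 values rested on 7 counts over the 4 libraries, so the limit has little meaning for them. SNAI1 was low in replicate 2 (2.53 against 2.85 to 2.89) and UBTF in replicate 3 (133 against 136 to 137).

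At 5 µM, replicate 1 was high for CDKN1A (690.4 against 654 to 656) and COL1A1 (35.0 against 29.5 to 29.7) and low for H1-5 (0.624 against 1.187 to 1.245). Replicate 2 was low for CRELD2 (41.8 against 51.1 to 52.5), KRT16 (0.258 against 0.624 to 0.687) and SPINT1 (114 against 122 to 124), and high for MDM4 (9.28 against 5.70 to 6.31). Replicate 3 was high for LGR5 (8.72 against 5.61 to 5.94) and POLR2A (987 against 891 to 906). Replicate 4 was high for CCNG1 (79.4 against 74.7 to 75.4) and TOP1 (146 against 135 to 136). In CDKN1A, COL1A1, CRELD2, SPINT1, MDM4, LGR5, POLR2A and CCNG1 the library set apart was still on its own dose's side of all 4 libraries of the other dose.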

How the results depend on the processing

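The counts of genes called in the upper dose step stayed within 1.5 times the reported ones under all alternatives but one: without a filter on low counts, genes higher by at least 2-fold numbered 3366. Leaving out each of the 12 libraries in turn gave 5502 to 5896 higher and 5426 to 6020 lower genes, with 1721 to 1929 and 475 to 566 at 2-fold. For the difference of the steps it gave 3276 to 3773 more positive and 4097 to 4570 more negative genes. Other settings gave 5621 to 7059 higher and 4734 to 6066 lower genes. The test of the difference was not run with DESeq2 or on the 8 treated libraries alone. Replicate numbers are shared between groups. Same-numbered 2.5 and 5 µM libraries correlated at −0.108 to 0.010 in their deviations from the group means. No pairing by number was visible in these values, which cannot exclude a weak pairing or shared handling. With a replicate block 5621 genes were higher and 5802 lower, 1705 and 503 at 2-fold, and the steps differed in 3605 and 4458, more positive and more negative. Values near 0 changed sign without being called in those fits: TOP1 was −0.001 without a low-count filter and ran from −0.019 (without replicate 4 at 2.5 µM) to 0.036 over the left-out libraries, with −0.004 without replicate 4 at 5 µM. CHAC1 ran from −0.254 to 0.001 (without replicate 1 at 2.5 µM) and HSPA5 from −0.009 (without replicate 3 at 5 µM) to 0.096. DCN was 0.016 under RLE scaling and with DESeq2, 0.032 under upper quartile and 0.068 under library-size scaling, and ran from −0.056 to 0.001 (without replicate 2 at 5 µM) over the left-out libraries. Library-size scaling raised the median of all genes from −0.01 to 0.08, and list medians near 0 turned with it, the nuclear oxidative phosphorylation genes, NRF2 targets and NF-kB genes among them. The cause was not tested. Genes at a few counts, such as IGF2 at 2.5 µM, have folds of low precision.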

Other observations

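Some genes outside the groups described above also differed between the doses, and these were chosen by the rule for named genes unless stated. STING1, the adaptor of DNA sensing in the cytosol, was at 26.9, 20.4, 24.4 and 23.4 CPM at 2.5 µM and at 59.4, 57.5, 61.5 and 58.0 at 5 µM, a log2 fold change of 1.32 ± 0.075 (adjusted p = 1.36e-16). IFI6, an interferon-induced gene, rose by 1.59 ± 0.11, although the interferon response list as a whole had 10 higher and 6 lower of 22 tested and a median of 0.01. SLC39A10, a zinc importer, fell by 1.41 ± 0.091, and SLC39A14, another member of the family, fell by 0.54 ± 0.042. CPS1, which begins the urea cycle, fell from 1766, 1772, 1795 and 1781 to 939.8, 961, 953 and 927 CPM, or a log2 change of −0.91 ± 0.040. TF, which encodes the serum iron carrier transferrin, rose from 8 counts over the 4 libraries at 2.5 µM to 284 at 5 µM, with 0 in the controls, and was called at 5.15 ± 0.31 (adjusted p = 2.62e-15). It passed the filter on low counts only through the 5 µM libraries.

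LYZ, which encodes lysozyme and was not among the genes tested, had 46 of its 52 counts at 2.5 µM in replicate 3, and all 10 of its counts at 5 µM in the replicate with the same number. Among the controls 7 of its 8 counts were in replicate 1. This gene was singled out after its values were seen.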
